A study of Sus scrofa with 16 samples.

Results

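The genes described here were 60 genes of the extracellular matrix and of cell adhesion, out of 6765 genes to which the array annotation gave a symbol. They were chosen by symbol, with earlier results of these data known. The symbols covered collagens, laminins, integrin alpha and beta chains, fibrillins, fibulins, matrix metalloproteinases (MMP), tissue inhibitors of metalloproteinases (TIMP) and ADAM proteases. DCN, BGN, LUM, FN1 and SPARC were also included. Where a gene had more than 1 probe set, the one with the highest mean over the 16 arrays stood for it. All 60 symbols matched a RefSeq gene of the pig assembly Sscrofa11.1. Of them 1, ITGB1BP2, shares the start of its symbol with the integrin beta chains but is not an integrin chain. The samples were liver and subcutaneous backfat of Iberian pigs slaughtered at 211 days, taken from males and females fed either at a high level or at a low level, restricted by 20%. Each of the 8 groups (tissue, sex and feeding level) had 2 arrays, each from an animal with its own number. The design states 8 animals, yet 10 animal numbers occur, and castration of the males is not mentioned in the labels. Animals 14 to 17 are males and gave both tissues, whereas the female numbers 20 and 21 stand beside opposite feeding levels in the 2 tissues, so that females were not paired.

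The extracellular matrix is the protein scaffold between cells. Fibrillar collagens give it tensile strength, laminins and collagen IV form the basement membrane around vessels and fat cells, and small proteoglycans such as decorin control how collagen fibrils assemble. Integrins are receptors made of 1 alpha and 1 beta chain that tie cells to this scaffold, and MMP, ADAM and ADAMTS proteases remodel it under the control of TIMP inhibitors. In fat, each adipocyte sits in a basement membrane and fibroblasts make the fibrillar matrix. In healthy liver the matrix is sparse, and hepatocytes release plasma fibronectin into the blood.

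Values are deposited GCRMA values on a log2 scale, where 1 unit is a doubling, and a value above 4 was taken as above the floor to which unexpressed probe sets fall. Array medians lay between 3.93 and 4.12. Hepatocyte markers (9 of 10 listed genes measured) averaged 14.39 to 14.65 on the liver arrays and 3.77 to 7.67 on the backfat arrays. Adipocyte markers (5 of 8 measured) averaged 11.50 to 12.72 in backfat and 2.46 to 2.95 in liver, where ADIPOQ, LEP, LPL and PPARG were below 4 on all arrays. Skeletal muscle markers (5 of 7 measured) were below 4 on all 16 arrays. Over the members tested in a tissue, the array means had no value that stood apart from the other 7 by Dixon's test.

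Of the 60 genes, 37 were above 4 on at least 2 of the 16 arrays and were tested between the tissues, 21 of them on all 16 arrays. One further gene, the sheddase ADAM17, passed 4 on 1 array only, at 4.61 in backfat of high-fed female 22. The other 22 were below 4 on every array. They comprised the cartilage, anchoring and epithelial collagens COL2A1, COL10A1, COL11A1, COL7A1 and COL17A1, and the integrin alpha chains ITGA2, ITGA2B, ITGA6, ITGA8 and ITGAM. Also below 4 throughout were ITGB7, ITGB1BP2, the metalloproteinases MMP1, MMP3, MMP9, MMP13, MMP14 and MMP20, the inhibitor TIMP4, and ADAM2, ADAM28 and ADAMTS20. These 22 values say only that these probe sets did not rise above the floor. COL1A1, COL4A1, COL6A1, COL18A1, LAMA4 and ITGA1 were not analysed here. In the heat map of levels most collagens, laminins and proteoglycans above the floor are brighter across all backfat arrays.

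**Figure D1:**
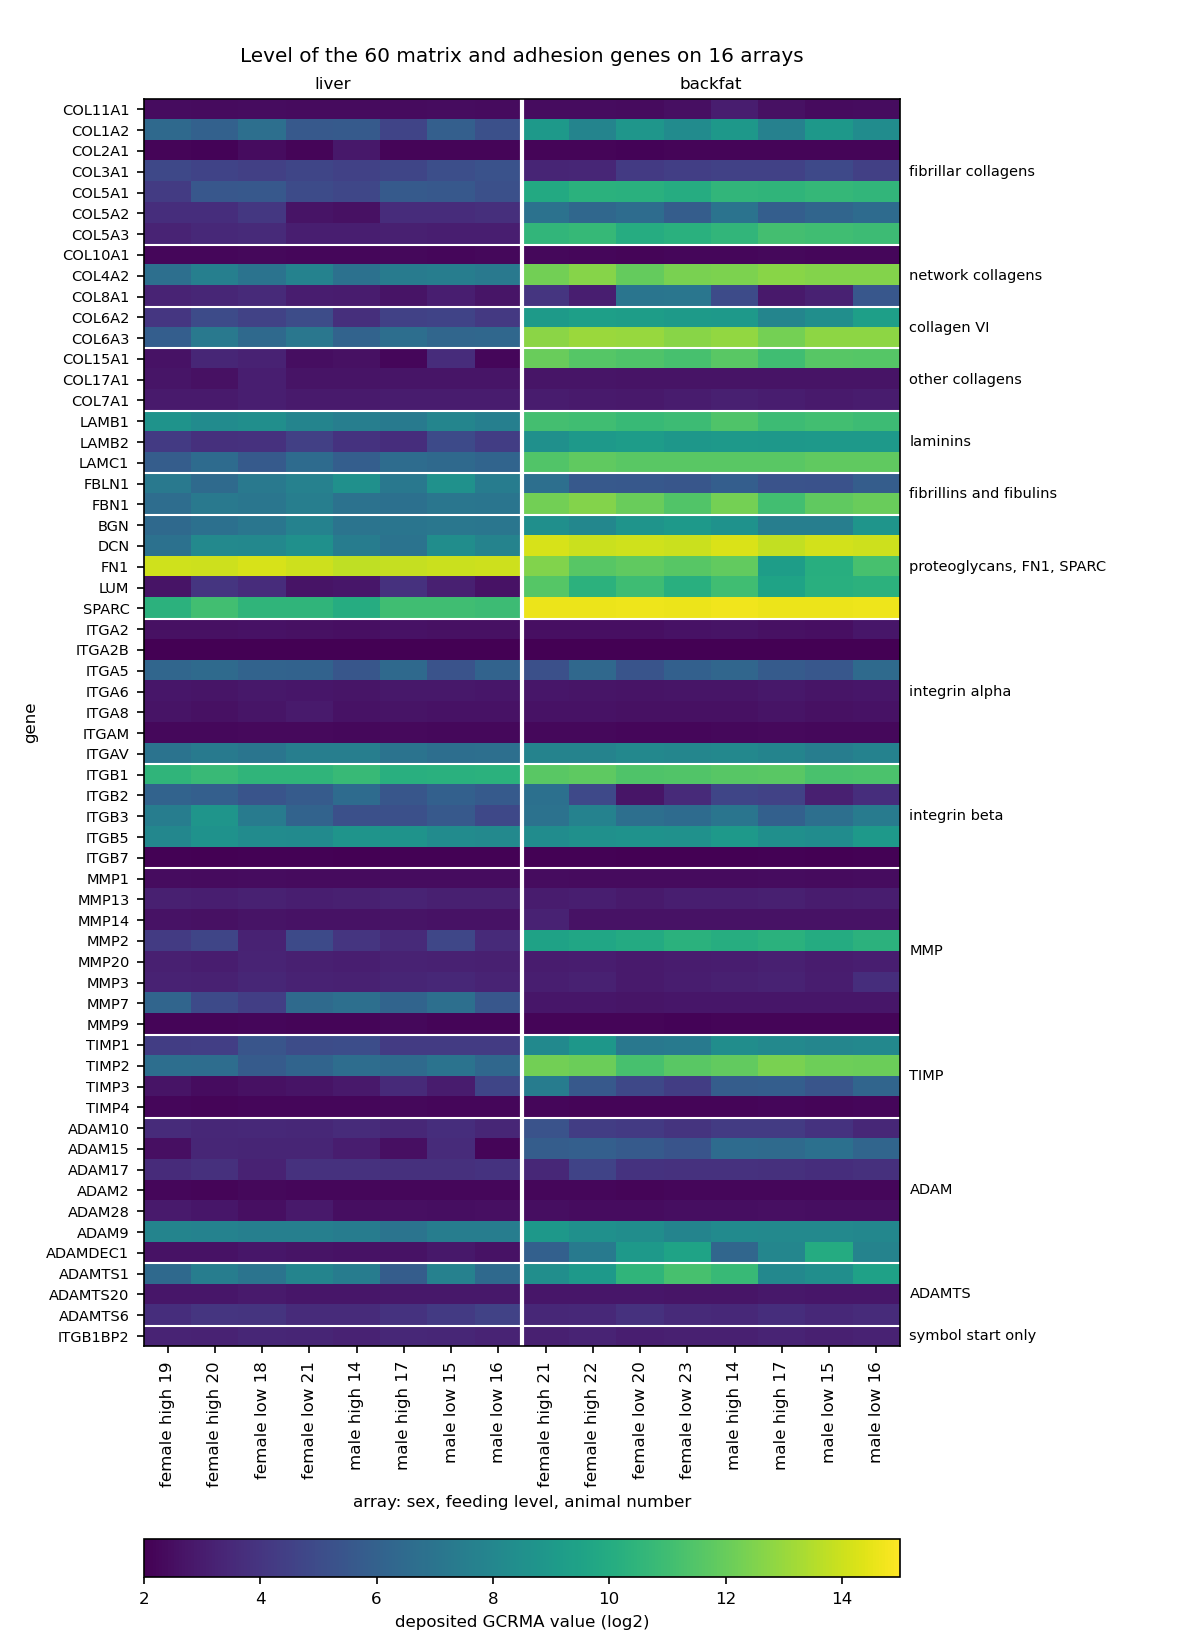
Heat map of the deposited GCRMA value (log2, colour scale from 2 to 15) of the 60 genes in rows, grouped by role, on the 16 arrays in columns, labelled by sex, feeding level and animal number. SPARC and DCN are bright on the 8 backfat arrays, FN1 is bright on the 8 liver arrays, and the genes below 4 on every array stay dark throughout.

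Between the tissues, most of the tested matrix genes stood higher in backfat than in liver, among them type V collagen, basement membrane chains, collagen VI, fibrillin, the small proteoglycans and the TIMP inhibitors. Fibronectin, fibulin 1, MMP7, COL3A1, ITGB2 and ADAMTS6 stood higher in liver. Of the 37 tested genes, 28 stood higher in backfat and 6 lower in limma's test with Benjamini-Hochberg adjustment over all 13962 probe sets, and 3 did not pass. Over all probe sets tested, 75.7% passed, 43.6% as higher and 32.2% as lower, and 77.3% had an unadjusted p below 0.05, so that a call in either direction was common. The median difference of the 37 genes was 2.92 (log2), or 2.70 with the genes below 4 throughout a tissue set against 4. That of all 13962 probe sets tested was 0.15. Part of this count follows from the filter: 7 of the 37 were above 4 in backfat only and 2 in liver only, so that these had to stand higher there. The remaining 23 genes were not tested. In whole tissue, fewer cells of a type and less RNA per cell cannot be told apart. Marker lists of cells that make matrix also had higher means in backfat. Fibroblast, stellate cell and pericyte markers (6 of 10 measured, with DES below 4 in both tissues) averaged 8.98 to 9.95 on the backfat arrays and 6.19 to 6.87 on the liver arrays. Endothelial markers (9 of 10, with KDR and TIE1 below 4 in both tissues) averaged 7.14 to 8.19 against about 5 to 5.63. Of the 7 tested, 6 passed as higher, while TEK did not, at 7.64 to 8.40 in backfat and 7.67 to 9.15 in liver. Smooth muscle markers (5 of 6, with MYLK below 4 in both tissues) averaged 6.51 to 7.63 against 5.60 to 6.63. Their part in the tissue differences was not tested.

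**Figure D2:**
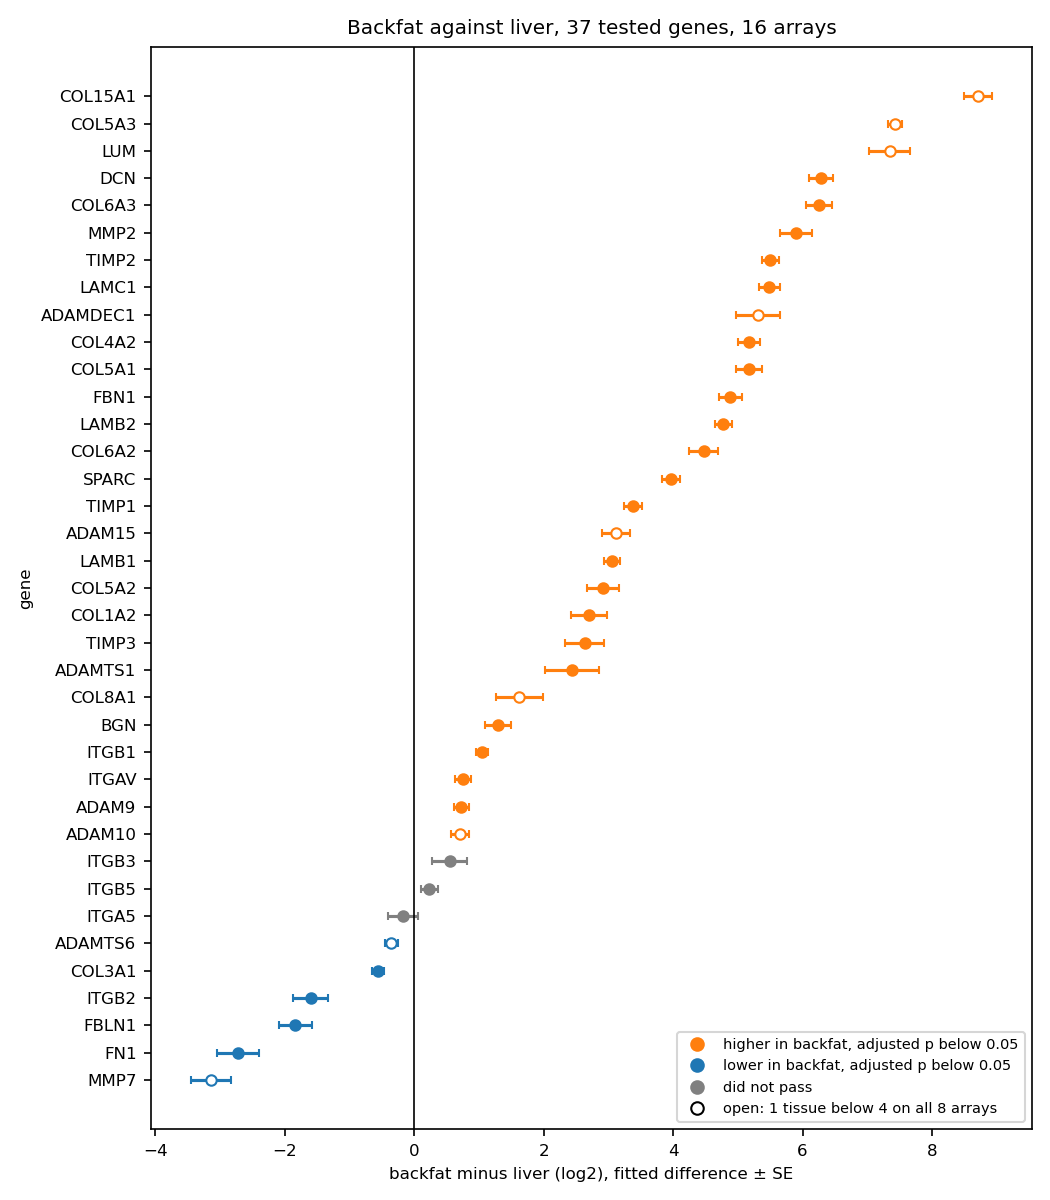
Fitted difference between backfat and liver (log2, horizontal axis, ± SE) of the 37 tested genes, ordered by size, from 8 arrays per tissue. Points right of 0 are higher in backfat, open points mark genes below 4 on all 8 arrays of 1 tissue, and grey points did not pass; COL15A1 lies farthest right at 8.71 and MMP7 farthest left at -3.14.

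Among the fibrillar collagens, 5 of 7 were tested, 4 stood higher in backfat and 1 lower. COL5A3, a type V chain that helps set fibril diameter, ranged from 10.06 to 11.11 in backfat (median 10.65) and from 3.09 to 3.55 in liver (median 3.11). All liver arrays lay below 4, so the difference of 7.43 ± 0.11 (SE) means at least 101-fold higher in backfat (adjusted p = 9.33e-14). COL5A1, the main type V chain, ranged from 9.92 to 10.64 (median 10.41) in backfat and from 4.25 to 5.66 (median 5.34) in liver, with no overlap. That was a 35.9-fold difference (5.17 ± 0.20, adjusted p = 4.50e-10). COL1A2, the second chain of type I collagen, the chief protein of fibrous tissue, ranged from 7.72 to 9.01 in backfat (median 8.59) and from 4.66 to 6.77 in liver (median 5.79), and was 6.50-fold higher in backfat (2.70 ± 0.27, adjusted p = 2.85e-06). COL5A2 averaged 6.40 ± 0.42 (SD, n = 8) in backfat and 3.49 ± 0.54 in liver, where 1 of 8 arrays was above 4.

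COL3A1, the type III collagen of reticular fibres, went the other way. It ranged from 3.34 to 4.87 in backfat (median 4.44), above 4 on 6 of 8 arrays, and from 4.44 to 5.29 in liver (median 4.72). The ranges overlapped, and the difference was -0.56 ± 0.10 (adjusted p = 2.13e-04). It was -0.32 and did not pass (adjusted p = 0.163) when males alone were fitted with the animal as a replicate block. COL3A1 had 1 probe set, which stood within about 1 unit of the floor on most arrays, and its neighbour on the chromosome, COL5A2, stood 2.92 ± 0.25 higher in backfat.

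The collagens of basement membranes and of the cell surface stood higher in backfat throughout, where tested. COL15A1, a collagen of the zone between basement membrane and interstitial fibres, ranged from about 11 to 12.01 in backfat (median 11.56) and from 2.22 to 3.64 in liver (median 2.61). It was at least 182-fold higher in backfat (8.71 ± 0.22, adjusted p = 1.04e-11), the largest difference of the 37. COL6A3, a chain of the beaded collagen VI network that surrounds adipocytes, ranged from 12.27 to 13.04 (median 12.80) against 5.87 to 7.27 (median 6.37), a 76.3-fold difference (6.25 ± 0.21). COL6A2, another chain of the same network, averaged 8.94 ± 0.49 against 4.47 ± 0.44, with 7 of 8 liver arrays above 4. Both collagen VI chains therefore moved alike in direction, with no liver array reaching the lowest backfat array.

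COL4A2, a chain of the collagen IV sheet of basement membranes, ranged from 11.94 to 12.70 in backfat (median 12.51) and from 6.72 to 7.78 in liver (median 7.33), 36.1-fold apart (5.17 ± 0.17). COL8A1, a short-chain network collagen of vessel walls, was above 4 on 4 of 8 backfat arrays and on no liver array. It averaged 4.72 ± 1.73 against 3.11 ± 0.30, at least 1.65-fold higher (adjusted p = 0.00163). That call did not pass in males alone with the replicate block (adjusted p = 0.0563).

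All 3 measured laminin chains were higher in backfat. LAMC1, the gamma chain shared by most laminins, ranged from 11.45 to 11.84 in backfat (median 11.68) and from 5.70 to 6.61 in liver (median 6.32), a 44.8-fold difference (5.49 ± 0.16, adjusted p = 4.30e-11). LAMB2, the beta chain of vessel and muscle basement membranes, averaged 8.93 ± 0.18 against 4.15 ± 0.42, with 4 of 8 liver arrays above 4. LAMB1, the more widespread beta chain, averaged 11.01 ± 0.20 against 7.95 ± 0.46, an 8.31-fold difference (3.05 ± 0.12). The backfat values of each laminin were tight, and none overlapped with liver.

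The microfibril genes split. FBN1, fibrillin 1, which forms the microfibrils of elastic tissue, ranged from 11.08 to 12.59 in backfat (median 12.02) and from 6.67 to 7.58 in liver (median 7.07), 29.5-fold higher in backfat (4.88 ± 0.18). FBLN1, fibulin 1, a matrix and plasma glycoprotein, ranged from 5.29 to 6.76 in backfat (median 5.61) and from 6.52 to 8.59 in liver (median 7.35). It was 3.57-fold lower in backfat (-1.84 ± 0.26, adjusted p = 4.97e-05), and the highest backfat array passed the lowest liver array.

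Of the proteoglycans and glycoproteins, 4 were higher in backfat and 1 was lower. DCN, decorin, ranged from 13.80 to 14.28 in backfat (median 14.05) and from 6.84 to 8.53 in liver (median 7.93), a 78.2-fold difference (6.29 ± 0.19, adjusted p = 4.53e-11). LUM, lumican, a keratan sulfate relative of decorin that lies next to DCN in the genome, ranged from 9.52 to 11.59 (median 10.35) against 2.64 to 3.99 (median 2.95). All liver arrays of LUM were below 4, so backfat was at least 91.9-fold higher (7.34 ± 0.32). For both genes the tissues were far apart.

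SPARC, a collagen-binding glycoprotein made by fat cells and fibroblasts, ranged from 14.60 to 14.74 in backfat (median 14.63) and from 10.07 to 11.08 in liver (median 10.71), 15.6-fold higher in backfat. Its backfat SD of 0.04 was the smallest of all members above 4 on the 8 arrays of a tissue. BGN, biglycan, ranged from 7.57 to 9.04 against 6.46 to 7.75, overlapped, and differed 2.45-fold (1.29 ± 0.20, adjusted p = 1.20e-04). FN1, fibronectin, ranged from 9.23 to 12.52 in backfat (median 11.63) and from 13.76 to 14.20 in liver (median 13.99). It was 6.58-fold lower in backfat (-2.72 ± 0.33, adjusted p = 1.21e-05), and a second tested probe set of FN1 gave -3.96 ± 0.38. The 8 liver arrays of FN1 lay within a narrow band that no backfat array reached.

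The 6 tested integrin chains, of 12 measured, had differences between -1.60 and 1.05; ITGB1 and ITGAV were higher in backfat, ITGB2 was lower and 3 did not pass. ITGB1, the beta chain of the collagen and laminin receptors, ranged from 11.24 to 11.76 in backfat (median 11.55) and from 10.22 to 10.79 in liver (median 10.49), without overlap and 2.07-fold higher in backfat (1.05 ± 0.09, adjusted p = 9.21e-07). ITGAV, the alpha chain of vitronectin and fibronectin receptors, averaged 7.86 ± 0.19 against 7.11 ± 0.34 (difference 0.75 ± 0.12). ITGB2, the leukocyte beta chain, ranged from 2.75 to 6.81 in backfat (median 4.14), above 4 on 4 of 8 arrays, and from 5.39 to 6.54 in liver (median 5.84), 3.03-fold lower in backfat (-1.60 ± 0.27). Macrophage markers (6 of 10 measured, none below 4 throughout a tissue) averaged 4.78 to 7.03 on the backfat arrays and 8.71 to 9.45 on the liver arrays, and their part in the ITGB2 difference was not tested. ITGA5, the fibronectin receptor alpha chain, did not pass (-0.18 ± 0.23, adjusted p = 0.507). Neither did ITGB5 (0.23 ± 0.13, adjusted p = 0.134) or ITGB3 (0.55 ± 0.27, adjusted p = 0.0892), both partners of ITGAV. ITGB5 passed without liver of female 20 or without backfat of male 15. ITGB3 passed without liver of female 18 or 20, without backfat of male 17, and in males alone with the replicate block.

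Among the metalloproteinases, 2 of 8 were tested and moved in opposite directions. MMP2, gelatinase A, which degrades collagen IV and denatured collagen, ranged from 9.50 to 10.35 in backfat (median 10.06) and from 3.25 to 4.94 in liver (median 4.13), with 4 of 8 liver arrays above 4. The difference was 59.5-fold (5.90 ± 0.24, adjusted p = 9.00e-10). MMP7, matrilysin, a protease of epithelial cells, ranged from 4.43 to 6.77 in liver (median 6.23) and from 2.75 to 2.81 in backfat. It was at least 3.79-fold lower in backfat (-3.14 ± 0.30, adjusted p = 1.89e-06). Its chromosomal neighbour MMP20, the enamel protease, and the nearby MMP1, MMP3 and MMP13 were below 4 in both tissues.

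The inhibitors stood higher in backfat in 3 of 3 tested. TIMP2, which also takes part in activating MMP2 at the cell surface, ranged from 11.23 to 12.39 in backfat (median 12.08) and from 5.72 to 6.97 in liver (median 6.55), 45.3-fold higher in backfat (5.50 ± 0.13, adjusted p = 5.86e-12). TIMP1, the inducible inhibitor, ranged from 7.22 to 8.88 (median 8.09) against 4.24 to 5.45 (median 4.39), a 10.4-fold difference (3.38 ± 0.14). TIMP3, which binds to the matrix, averaged 5.70 ± 0.93 in backfat and 3.07 ± 0.75 in liver, where 1 of 8 arrays was above 4 (difference 2.63 ± 0.30).

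Of the ADAM family 4 were higher in backfat. ADAMDEC1, a soluble member of the family reported in macrophages and stromal cells, ranged from 5.98 to 10.01 in backfat (median 7.90) and from 2.61 to 2.86 in liver. It was at least 16.0-fold higher in backfat (5.32 ± 0.34, adjusted p = 4.51e-08), and its neighbour ADAM28 was below 4 on all arrays. ADAM15 averaged 6.11 ± 0.49 against 2.99 ± 0.52, with no liver array above 4, and was at least 4.32-fold higher. ADAM9, a widely expressed sheddase, differed by 0.73 ± 0.11. ADAM10, the sheddase of Notch, was above 4 on 5 of 8 backfat arrays and no liver array, and was at least 1.16-fold higher (adjusted p = 7.07e-04, but 0.0678 in males alone with the replicate block).

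ADAMTS1, which cleaves versican, ranged from 8.04 to 11.20 in backfat (median 9.19) and from 5.82 to 7.87 in liver (median 7.23), without overlap and 5.39-fold apart (2.43 ± 0.42, adjusted p = 2.36e-04). ADAMTS6 was close to the floor, above 4 on 3 of 8 liver arrays and on no backfat array, at 3.94 ± 0.33 against 3.58 ± 0.13 in backfat (difference -0.35 ± 0.10, adjusted p = 0.00934). That call did not pass with values under 4 set to 4 (adjusted p = 0.227), nor in males alone with the replicate block.

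Other probe sets of the same genes gave the same direction where they passed the filter, which signal in either tissue allows. Of 14 further probe sets tested, from 10 genes, all 14 had the sign of the chosen one and all 14 passed. Further probe sets stayed under the filter, were not tested and do not bear on the direction. Among them were others of DCN (mean 2.95 in backfat and 3.07 in liver), COL5A3 (2.39 and 2.42) and SPARC (1.94 and 1.97), without a clear tissue difference. Among the 37 genes, 25 had groups that did not overlap (23 higher and 2 lower in backfat), where 44.9% of all probe sets tested had none. Neighbours in the genome did not always move alike: DCN and LUM both stood higher in backfat, whereas COL3A1 and COL5A2 took opposite directions. The direction of COL3A1 rests on 1 probe set near the floor, and its call did not pass in males alone with the replicate block.

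Genes that work with these proteins were read from the same test, where 43.6% of all probe sets passed as higher in backfat and 32.2% as lower. Of 23 listed genes of collagen processing 12 were measured, and 10 of them were higher in backfat and 0 lower. Their median difference was 2.45, or 2.13 with genes below 4 on all liver arrays set against 4. FKBP10, a chaperone of procollagen folding, averaged 8.06 ± 0.49 in backfat and 2.55 ± 0.19 in liver, below 4 on all liver arrays, and was at least 16.7-fold higher in backfat. Other examples were CRTAP, a subunit of the prolyl 3-hydroxylase complex, with a difference of 3.72 ± 0.12, and CTSK, the collagen-degrading cathepsin K, at 3.31. P4HA2 and PLOD3, enzymes that hydroxylate proline and lysine of collagen, did not pass (0.49 and -0.24). Of 18 other matrix genes measured (28 listed), 17 were higher and 1 lower. The median was 3.40, or 3.09 with the limits for 7 genes below 4 on all liver arrays. The microfibril protein MFAP5, below 4 on all liver arrays, averaged 10.41 ± 0.80 against 3.04 ± 0.13 and was at least 85.3-fold higher. The basement membrane protein NID2 differed by 5.05 and the thrombospondin THBS2, above 4 on 7 of 8 liver arrays, by 5.64. The lower one was VTN, vitronectin, a plasma protein made in liver, at -9.42 ± 0.44, above 4 on 5 of 8 backfat arrays.

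Of 8 measured genes of TGF beta signalling (22 listed), the main inducer of collagen synthesis, 7 were higher in backfat. The median was 1.42, or 1.16 with the limits for 2 genes. The receptor TGFBR1 differed by 2.72. The receptor TGFBR3 (5.21 ± 0.69 against 2.71 ± 0.26) and the ligand TGFB2 (5.23 ± 0.40 against 3.21 ± 0.03) were below 4 on all liver arrays, and were at least 2.31-fold and 2.34-fold higher in backfat. TGFB1 did not pass (0.22 ± 0.12, adjusted p = 0.116). Of 8 measured integrin adaptors (20 listed), 6 were higher and 1, CD47, lower (-0.56). TLN1, talin, which activates integrins, had 1.61, RSU1 1.59 and PARVA 1.78. Of 7 measured genes of the plasmin system (9 listed), 5 were higher and 2 lower. ANXA2, a plasminogen receptor subunit, had 4.54, while the liver plasma proteins PLG, plasminogen, and A2M, a broad protease inhibitor, had -10.94 and -6.72, with PLG above 4 on 2 of 8 backfat arrays.

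Within a tissue the members varied over a wide range between animals. In backfat 31 members were above 4 on all 8 arrays and had a median SD of 0.37, from 0.04 to 1.46. In liver 24 members had a median SD of 0.38, from 0.13 to 1.42. The widest were ADAMDEC1 in backfat (SD 1.46), ITGB3 in liver (1.42), ADAMTS1 in backfat (1.20) and FN1 in backfat (1.07). FN1 varied little in liver, with an SD of 0.13.

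Sex in liver separated 1 member. ITGB3, integrin beta 3, the chain of the platelet fibrinogen receptor and of the vitronectin receptor, was higher in females. The 4 females had 7.43 (low-fed 18), 7.51 (high-fed 19), 8.79 (high-fed 20) and 6.13 (low-fed 21), and the 4 males had 5.18 (high-fed 14), 5.65 (low-fed 15), 4.80 (low-fed 16) and 5.18 (high-fed 17). Every female lay above every male, and female 20 was the highest. The means were 7.47 ± 1.08 and 5.20 ± 0.35 (SD, n = 4), a 4.80-fold difference (2.26 ± 0.40, adjusted p = 0.0299). It was the only call among the 28 members tested in liver, where 4.53% of the 12617 probe sets passed, 2.24% as higher and 2.3% as lower in females. The call did not hold with no filter, without male 14, 15, 16 or 17, or without female 18 or 20, and the adjusted p over 18 alternatives ran from 0.00476 to 0.114. ITGB3 had 1 probe set.

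Levels of cell type markers in the same livers were read beside ITGB3. ITGA2B, the alpha partner of ITGB3 on platelets, was below 4 on all 16 arrays. The mean of the 2 measured blood markers, HBB and ALAS2, ran from 5.91 to 8.03 in females and from 5.84 to 6.81 in males. Endothelial markers averaged 5.14 to 5.63 in females and about 5 to 5.63 in males. The mean of the 6 macrophage markers overlapped, at 8.78 to 9.22 in females and 8.71 to 9.45 in males. One of them, CD14, did not overlap, at 9.35, 9.36, 9.29 and 9.32 in females and 9.27, 8.35, 8.41 and 8.51 in males (0.70 ± 0.18, adjusted p = 0.0888), and the other 5 had a lower mean in females. The part of cell content in the ITGB3 difference was not tested. In backfat ITGB3 ranged from 5.99 to 7.74 and its sex difference was 0.19. The difference between the tissues in the sex effect was -2.08 ± 0.55 and did not pass (adjusted p = 0.0895).

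The other 27 members tested in liver did not pass for sex, and 4 of the 28 had an unadjusted p below 0.05, against 19.2% of all probe sets. LAMB1 had 8.43, 8.66, 8.27 and 7.86 in females 18 to 21 and 7.58, 7.91, 7.59 and 7.34 in males 14 to 17. Only female 21 fell within the males' range, and the difference was 0.70 ± 0.19 (adjusted p = 0.0996). It passed with the mean of both its probe sets and with all 16 arrays in 1 fit, with or without the replicate block. The second probe set of LAMB1 had 0.90 ± 0.14 (adjusted p = 0.0189). That probe set lay near the floor in liver, with a mean of 3.46 and a highest array of 4.20. Its value, and the mean of both probe sets, are therefore limited by the floor.

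COL1A2 averaged 6.22 ± 0.48 in females and 5.35 ± 0.55 in males (0.87 ± 0.34, adjusted p = 0.234). ADAM9 averaged 7.71 ± 0.11 and 7.37 ± 0.24 without overlap (0.34 ± 0.14, adjusted p = 0.244). FBLN1 averaged 7.17 ± 0.49 and 7.95 ± 0.71 (-0.78 ± 0.39, adjusted p = 0.339). ITGB3 and ADAM9 were the 2 members without overlap between the sexes in liver, against 11.8% of all probe sets tested. Among genes of the related pathways, ANXA2 was the only one to pass, 1.08 lower in females as a log2 difference (-1.08 ± 0.14, adjusted p = 0.0105).

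**Figure D3:**
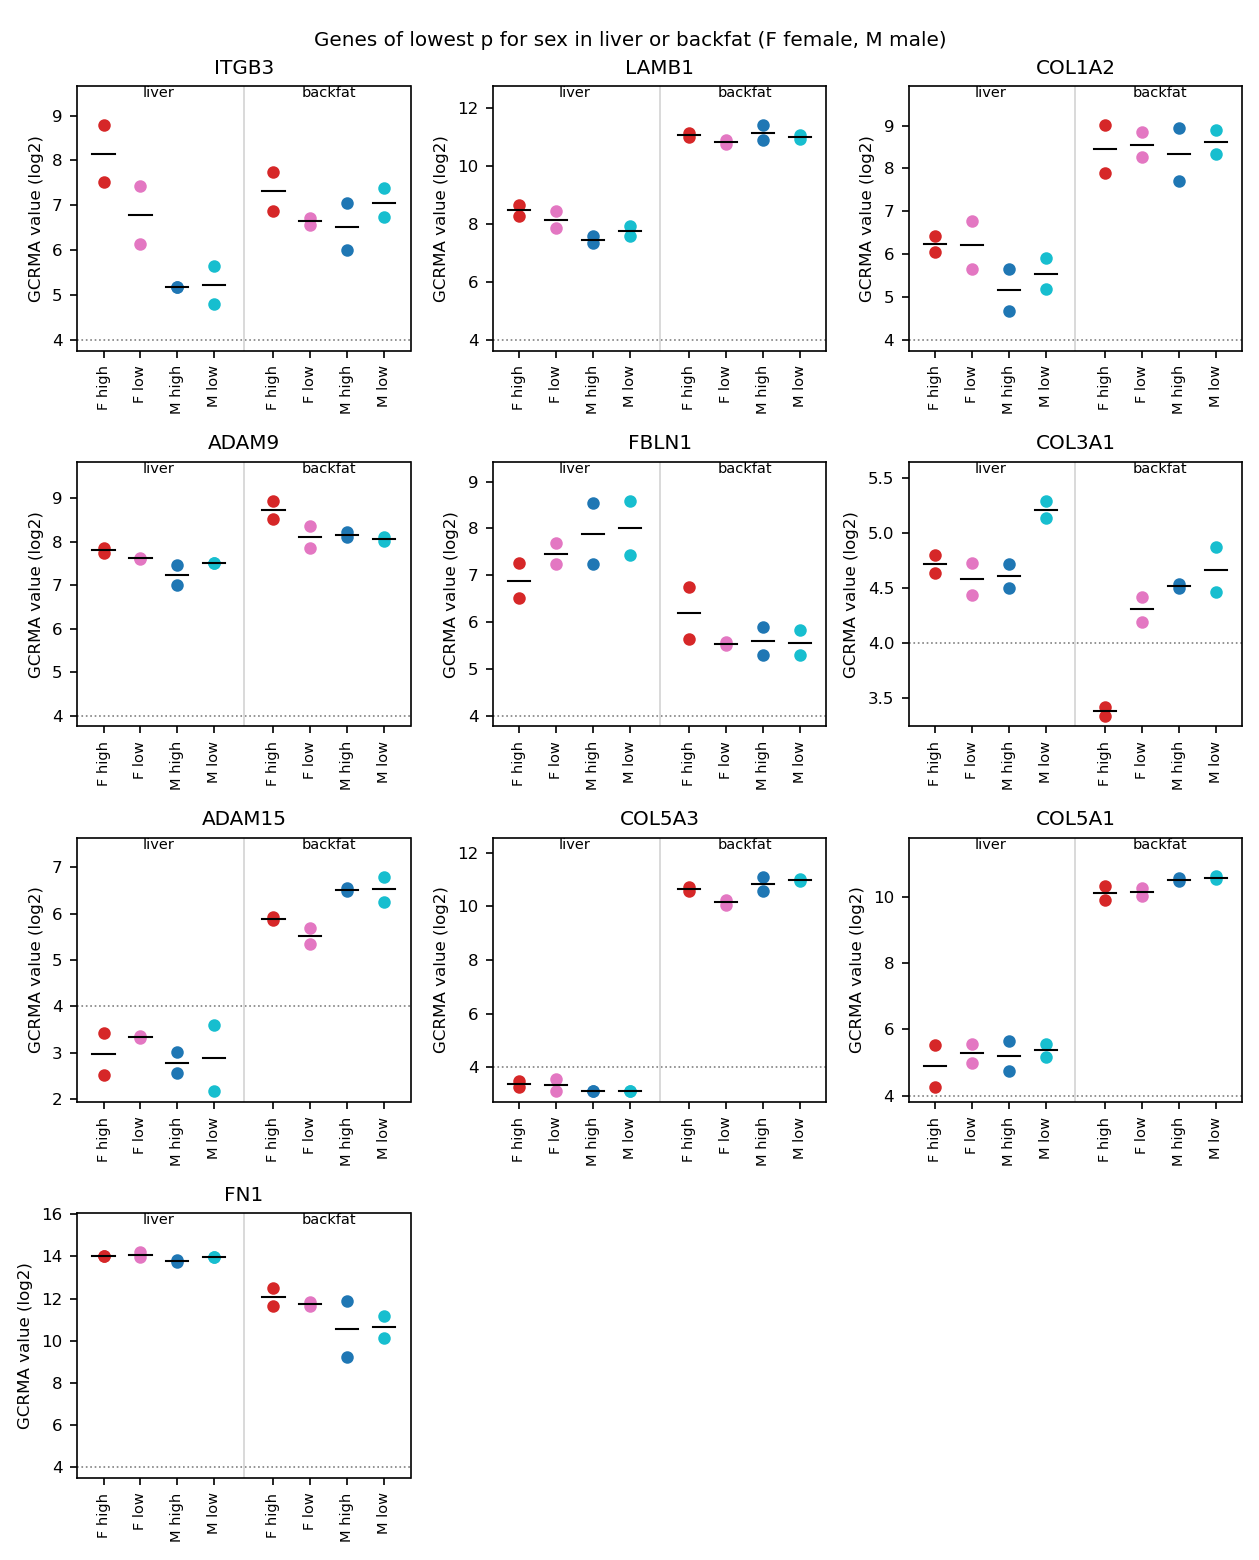
GCRMA value (log2) of the 5 genes of lowest p for sex in liver and those for sex in backfat, each point 1 array, with 2 arrays per sex and feeding level in each tissue and a bar at their mean; the dotted line is the floor of 4. ITGB3 is higher in the 4 female livers than in the 4 male livers, and COL3A1, ADAM15 and COL5A1 are lower in all 4 female than in all 4 male backfats.

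Sex in backfat gave no call among the 35 members tested by limma, with 4 at an unadjusted p below 0.05. Over all 12686 probe sets 0.11% passed (0.0552% in each direction) and 6.04% had an unadjusted p below 0.05. Members without overlap between the sexes numbered 3 (3.54% of all probe sets), and all 3 were lower in females. COL3A1 had 4.19, 3.34, 3.42 and 4.42 in females 20 to 23 and 4.54, 4.87, 4.46 and 4.50 in males 14 to 17. The females were all below the males, and 2 of the 4 were above the floor (-0.75 ± 0.14, adjusted p = 0.394). ADAM15 had 5.69, 5.85, 5.92 and 5.35 in females and 6.54, 6.80, 6.24 and 6.49 in males (-0.81 ± 0.17, adjusted p = 0.483).

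Of the 3 type V collagen chains, COL5A1 and COL5A3 had lower values in females without passing, while COL5A2 differed by 0.0029 ± 0.30. COL5A1 had 10.27, 9.92, 10.33 and 10.04 in females and 10.58, 10.64, 10.54 and 10.49 in males (-0.42 ± 0.14, adjusted p = 0.785). COL5A3 averaged 10.40 ± 0.30 and 10.91 ± 0.24 (-0.52 ± 0.16, adjusted p = 0.739). FN1 went the other way, at 11.84, 12.52, 11.63 and 11.63 in females and 11.88, 10.13, 11.20 and 9.23 in males. Males 15 and 17 were the lowest and male 14 lay within the females' range. The difference of 1.29 ± 0.59 (adjusted p = 0.822) became 1.96 without male 14 and 0.63 without male 17. Hepatocyte markers on the same arrays averaged 6.13, 7.67, 4.75 and 4.71 in males 14 to 17 and 7.47, 3.77, 5.36 and 6.06 in females 20 to 23. The part of hepatocyte marker levels in the FN1 values was not tested.

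Feeding level gave no call in liver among the 28 members tested by limma, and none among the 12617 probe sets (0% passed, 11.5% had an unadjusted p below 0.05). Of the 28 members, 2 had an unadjusted p below 0.05, 18 had higher and 10 lower values at the low level, and the median difference was 0.11 against -0.01 over all probe sets. Both genes at an unadjusted p below 0.05 were small proteoglycans. DCN had 8.39, 7.81, 8.05 and 8.53 in low-fed animals 15, 16, 18 and 21 and 7.44, 6.97, 6.84 and 8.11 in high-fed animals 14, 17, 19 and 20. High-fed female 20 lay among the low-fed animals, and the difference was 0.86 ± 0.32 (adjusted p = 0.387). BGN had 7.18, 7.11, 7.12 and 7.75 at the low level and 6.98, 7.06, 6.46 and 6.78 at the high level. It was the only member in liver without overlap (5.9% of all probe sets), at 0.47 ± 0.17 (adjusted p = 0.389).

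The next members by p in liver were LAMB2, above 4 on 3 of 4 low-fed and 1 of 4 high-fed arrays (0.50 ± 0.21, adjusted p = 0.432), ITGB5 (-0.30 ± 0.16, adjusted p = 0.523) and COL3A1 (0.24 ± 0.13, adjusted p = 0.540).

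Feeding level gave no call in backfat either, among 35 members or 12686 probe sets (0% passed, 11.1% had an unadjusted p below 0.05). Of the 35 members, 8 had an unadjusted p below 0.05, 13 had higher and 22 lower values at the low level, and the median difference was -0.07 against 0.01 over all probe sets. The lowest p belonged to ITGB2. It had 3.12, 3.72, 2.75 and 3.57 in low-fed animals 15, 16, 20 and 23 and 4.71, 4.57, 6.81 and 4.85 in high-fed animals 14, 17, 21 and 22. All low-fed arrays were below 4 and all high-fed arrays above it. The means were 3.29 ± 0.44 and 5.23 ± 1.06, at least 2.35-fold lower at the low level (-1.94 ± 0.44), and did not pass (adjusted p = 0.228).

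ITGB2 is the common beta chain of leukocyte integrins, and macrophage markers had lower values in the same arrays. Their mean (CD14, CD163, AIF1, TYROBP, C1QA and C1QC) was 4.78 to 5.66 on the low-fed and 5.65 to 7.03 on the high-fed arrays. All 6 had a lower mean at the low level, with a median difference of -1.12, and none passed. ITGAM, the macrophage alpha partner of ITGB2, was below 4 on every array. The part of macrophage content in the ITGB2 values was not tested.

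The inhibitors TIMP1 and TIMP3 had lower values at the low level in backfat. TIMP1 had 7.98, 8.07, 7.22 and 7.31 in low-fed animals and 8.36, 8.11, 8.19 and 8.88 in high-fed ones. The levels did not overlap, and the 2 low-fed females were the lowest (-0.74 ± 0.18, adjusted p = 0.254). TIMP3 averaged 5.21 ± 0.81 and 6.20 ± 0.83 (-0.98 ± 0.40, adjusted p = 0.437), with overlap. ITGB1 averaged 11.36 ± 0.11 and 11.69 ± 0.06 without overlap (-0.32 ± 0.11, adjusted p = 0.357). ADAM10, above 4 on 1 of 4 low-fed and 4 of 4 high-fed arrays, averaged 3.88 ± 0.32 and 4.55 ± 0.52 (-0.67 ± 0.24, adjusted p = 0.384). ITGB2, TIMP1, ITGB1 and ADAM10 were the 4 members without overlap, all lower at the low level, against 6.61% of all probe sets. The mean of the adipocyte markers (5 of 8 measured) did not overlap either, at 11.50 to 11.73 on the low-fed and 11.85 to 12.72 on the high-fed arrays. All 5 had a lower mean at the low level, LEP most (-2.06 ± 0.40, adjusted p = 0.203), and the other 4 differed by -0.28 to -0.07. Hepatocyte markers averaged 4.75 to 7.67 on the low-fed and 3.77 to 6.13 on the high-fed arrays, and endothelial markers 7.14 to 7.68 and 7.42 to 8.19. The part of these marker levels in the feeding values was not tested.

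A further 3 members had higher values at the low level in backfat, with an unadjusted p below 0.05. ADAMDEC1 had 10.01, 7.82, 9.04 and 9.52 in low-fed animals and 6.28, 7.98, 5.98 and 7.37 in high-fed ones. Only high-fed male 17 and low-fed male 16 crossed, and the difference was 2.19 ± 0.62 (adjusted p = 0.292). COL8A1 had 3.17, 5.53, 7.06 and 7.12 in low-fed animals and 4.99, 2.88, 3.98 and 3.07 in high-fed ones. The 2 low-fed females stood highest, 3 of 4 low-fed and 1 of 4 high-fed arrays were above 4, and the difference of 1.99 ± 0.65 (adjusted p = 0.345) became 2.58 without male 15 and 1.40 without male 16. COL3A1 averaged 4.49 ± 0.28 and 3.95 ± 0.66, with 2 of 4 high-fed arrays above 4 (0.54 ± 0.14, adjusted p = 0.275). None of the related pathway genes passed for feeding in either tissue. The lowest adjusted p-values were 0.198 for TGFB1 (-0.69) and 0.203 for FKBP10 (0.79), both in backfat.

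**Figure D4:**
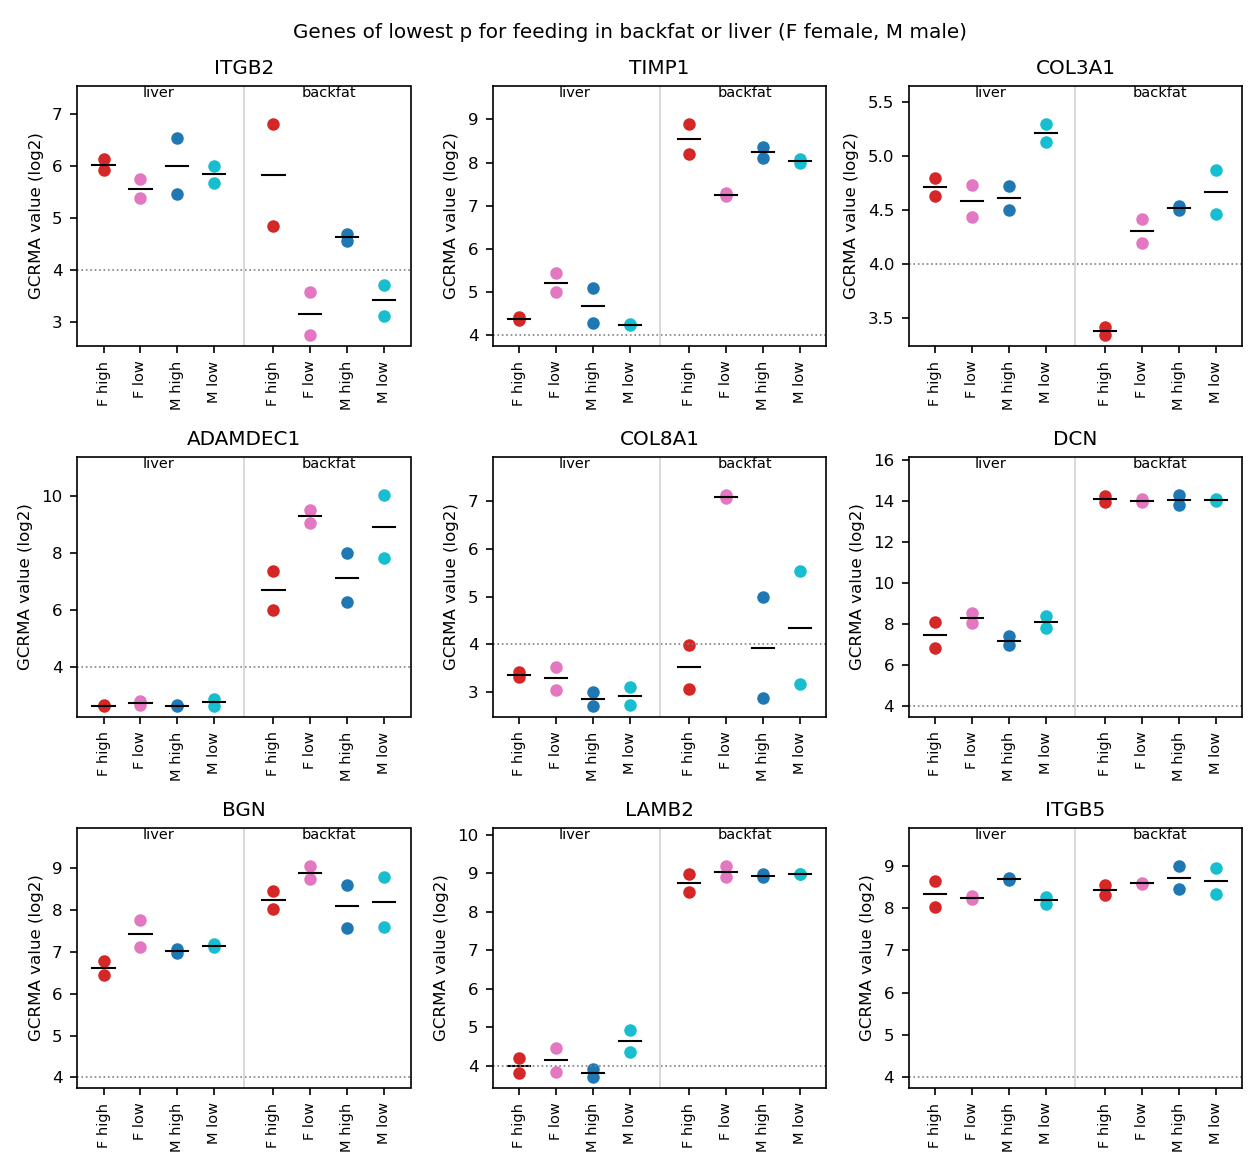
GCRMA value (log2) of the 5 genes of lowest p for feeding level in backfat and those for feeding level in liver, each point 1 array, with 2 arrays per sex and feeding level in each tissue and a bar at their mean; the dotted line is the floor of 4. In backfat ITGB2 lies below 4 on the 4 low-fed arrays and above 4 on the 4 high-fed arrays, and COL8A1 is highest in the 2 low-fed females.

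Whether feeding acted alike in both sexes was asked within each tissue, and no member passed. In liver 2 of 28 members had an unadjusted p below 0.05 (5.43% of all probe sets, 0% passed). TIMP1 had the lowest, with a feeding difference 1.27 larger in females than in males (adjusted p = 0.898). Low-fed females had 5.45 and about 5, and high-fed females 4.35 and 4.43. Low-fed males had 4.24 and 4.26, and high-fed males 5.09 and 4.28. COL3A1 had -0.74, TIMP2 -0.85, ADAMTS6 -0.73 and BGN 0.69, all at the same adjusted p.

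In backfat 4 of 35 had an unadjusted p below 0.05 (5.27% of all probe sets, 0% passed). The 5 of lowest p were TIMP1 (-1.07), COL3A1 (0.78), COL8A1 (3.15), TIMP3 (-1.94) and ADAMTS1 (2.61), each at an adjusted p of 0.893. Single arrays moved 3 of these by over 1.5 times. COL8A1 was 2.09 without male 14, 1.97 without male 15, 4.33 without male 16 and 4.21 without male 17. ADAMTS1 was 1.26 without male 14 and 3.96 without male 17. TIMP3 was -1.05 without female 21 and -2.84 without female 22 (adjusted p = 0.196). TIMP1 had a difference of opposite sign in the 2 tissues in this term, and that contrast was not tested.

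Whether sex or feeding acted alike in both tissues was asked over all 16 arrays, and no member passed. For sex, 2.21% of the 13962 probe sets passed (1.12% as higher, 1.09% as lower) and 13.5% had an unadjusted p below 0.05, as did 5 of the 37 members. After ITGB3 came COL5A3 (-0.76, adjusted p = 0.110), LAMB1 (-0.82, adjusted p = 0.140), ADAM15 (-1.13, adjusted p = 0.246) and COL3A1 (-0.49, adjusted p = 0.277), where a negative value means a lower female-minus-male difference in backfat than in liver. COL5A3 and ADAM15 were below 4 on all liver arrays, so their values there have no order. For feeding, 0.0215% passed and 8.77% had an unadjusted p below 0.05, as did 7 of the 37. TIMP1 had -0.94 ± 0.29 (adjusted p = 0.378), ADAMDEC1 2.09 (0.416), ITGB2 -1.63 (0.423), COL8A1 about 2 (0.457) and ADAM10 -0.67 (0.534), the last numbers being adjusted p-values. ADAMDEC1, COL8A1 and ADAM10 were below 4 on all liver arrays, so their liver values have no order and these differences rest on backfat.

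**Figure D5:**
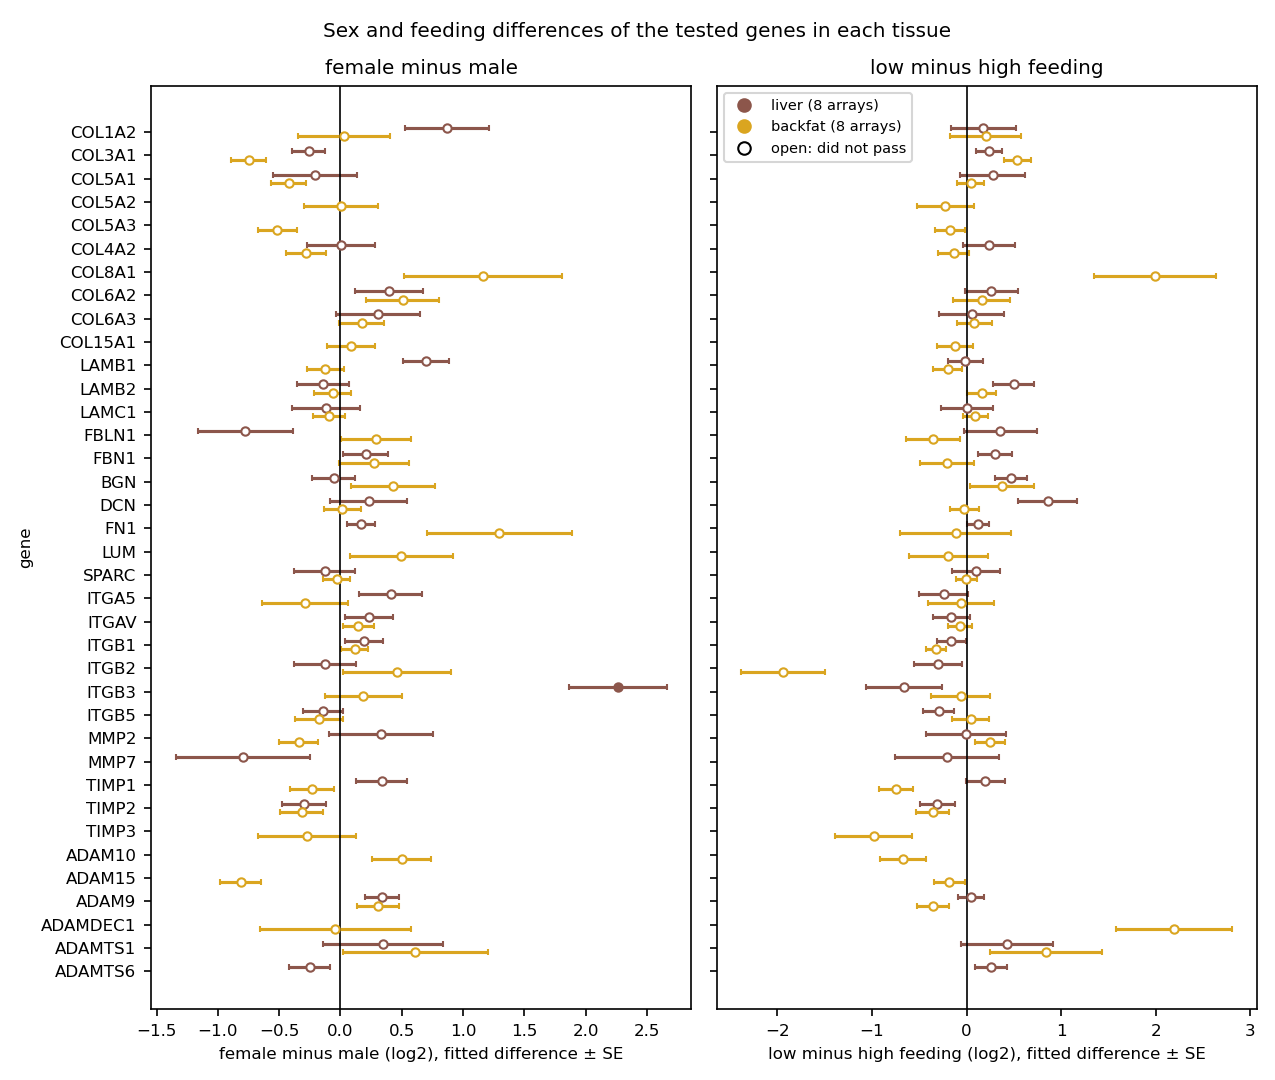
Fitted differences (log2, horizontal axes, ± SE) between females and males (left) and between low and high feeding (right) of the members tested in liver or backfat, with 8 arrays per tissue. The single filled point is ITGB3 for sex in liver at 2.26; all other points are open and did not pass.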

How the data were processed

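RNA of 16 liver and backfat samples was hybridised to Affymetrix porcine arrays. The authors deposited log2 expression values, made with GCRMA per the submitters' processing notes, with version and settings not given in the sources used here. Probe sets with no signal fall to a floor under GCRMA. Where all arrays of a group lay below 4, the fold is a lower limit that sets the brighter mean against 4. No batch or scan date is given. The table held 24123 probe sets; 124 controls were left out. The annotation gave 1 symbol to 10099 probe sets, several to 198, and did not list 13826. The number of arrays limits the precision.

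Groups came from the labels. Probe sets above 4 on at least 2 arrays of a fit were tested with limma 3.58.1 (lmFit, eBayes) in R 4.3.3 on group means, after a test on simulated data. Adjusted p-values are Benjamini-Hochberg values over all probe sets of the fit, with a threshold of 0.05; p-values measure the spread between these animals. The sex effect was averaged over feeding and the feeding effect over sex; comparisons of the tissues with a sex or feeding effect share the same arrays. Tests over both tissues used no animal block. For the 4 males, whose numbers pair the tissues, deviations from the group means correlated at 0.0889 (animals 14 and 17) and 0.0442 (15 and 16). Members and gene lists were chosen with earlier results of these data known. The text names up to 12 members per direction between tissues, further matrix genes of a list for that comparison, for other comparisons the members that passed or, with fewer than 5, those of lowest p, and up to 3 genes of a pathway list per comparison; VTN, CD47, P4HA2, PLOD3 and TGFB1 for tissue, the markers CD14 and LEP, COL5A2 for sex in backfat, and the other members without overlap or with an unadjusted p below 0.05, were named after their values were seen. Alternatives covered filters, normalization, floor, fit, probe sets, arrays left out and blocks.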

Additional observations from a re-analysis of the deposited data

Results flagged for a closer look

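A pair of genes of the related pathways had a sex effect that differed between the tissues by limma's interaction test. They were 1 of 8 tested integrin adaptors and 1 of 7 tested genes of the plasmin system. None passed among 12 genes of collagen processing, 18 of other matrix and 8 of TGF beta signalling. Over all 13962 probe sets tested, 2.21% passed. FLNA, filamin A, an actin cross-linker that binds integrin tails, had a female-minus-male difference 1.72 lower in backfat than in liver (-1.72, adjusted p = 0.0447). In liver it had 5.46, 6.15, 5.88 and 6.32 in females and 4.08, 4.46, 5.07 and 5.12 in males. In backfat it had 7.30, 7.11, 7.62 and 7.40 in females and 7.88, 8.15, 7.69 and 7.49 in males. ANXA2 had a difference of the opposite sign (1.16, adjusted p = 0.00946). In liver it had 9.03, 8.75, 8.89 and 9.29 in females and 9.89, 10.48, 10.16 and 9.75 in males, while every backfat array lay between 13.84 and 14.24.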

How the results depend on the processing

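Between the tissues, the count of members higher in backfat stayed within 27 to 30, and that of lower members was 10 in place of 6 with no filter, where all 60 genes were tested. Without 1 array at a time these counts ran from 28 to 30 and stood at 6. In males alone with the animal as a replicate block they were 27 and 4, and ITGA5, which did not pass, changed its sign to 0.17. With the random replicate block over all 16 arrays they were 28 and 6. For sex in liver, the 1 member higher became 0 with no filter, 2 when each gene's probe sets were averaged, 2 with all 16 arrays in 1 fit and 2 with that fit and the replicate block, and ran from 0 to 1 without 1 array. For the tissue by sex term, the 0 members higher became 1, FN1 (adjusted p = 0.0424), without backfat of male 14. The cause was not tested. Shifting arrays to a common median moved the median tissue difference of all probe sets, taken with no filter, from -0.02 to -0.11. Signal over background limits genes near the floor of 4, and each group had 2 arrays. Folds are lower limits only where all arrays of 1 side of a comparison lay below 4. Tissue folds of genes partly below 4 in a tissue, such as MMP2 and ITGB2, used those values as deposited. The backfat means of ADAM10 and COL8A1 include arrays below 4, so their limits are less firm.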
